A study of Mus musculus with 6 samples.

Results

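Histones are the proteins around which nuclear DNA is wound, and 90 of the 41527 TERT regions examined here carried the name of a histone gene. TERT, the protein that gives telomerase its catalytic activity, was located in the genome with CUT&Tag, a method that uses an antibody to tether a transposase and so cuts and tags nearby DNA. Rows were taken where the gene name or an alias began with Hist1h to Hist4h, or where the gene name began with H2af, H3f or H1f. They named 46 genes, out of 92 histone genes that the same rule finds in the RefSeq table of the mouse genome. Of those 92 genes, 84 are protein-coding and 70 carry Hist1 to Hist4 names. The 22 others are counted by name as outside the clusters, although H3f4 starts 7026 bp from a Hist3 gene and H2afj 3817 bp from Hist4h4. The Hist-named genes are called clustered below, although 1 of them, the pseudogene Hist1h2al, lies elsewhere on chromosome 13. The other 46 genes, 40 of them protein-coding, were named by no region, and 1 further gene was left out because the lists name it in a way the rule does not match.

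Cortical and hippocampal neurons had been cultured from C57BL/6 mouse embryos at embryonic day 15 to 18. In the vehicle group, 3 samples received dimethyl sulfoxide for 24 h. In the BIBR1532 group, 3 samples received BIBR1532, which inhibits telomerase, at 2 µM for the same time. Regions came as 3 lists, each made from the combined libraries: 6812 regions common to both conditions, 16153 with higher signal in BIBR1532 and 18562 with higher signal in vehicle. The direction of the condition-specific lists is likely and not stated, since it was read from the order of the conditions in their names. Each condition is 1 pooled measurement with unknown depth, so no test across samples exists, and no control library without the antibody was used here. Intervals below are exact (Clopper-Pearson) 95% binomial intervals. They cover counting error only and treat neighbouring regions as independent, which regions of 1 gene cluster are not.

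Most core histone and linker H1 proteins of dividing cells come from small intronless genes that stand in dense clusters and are transcribed mainly in S phase. Their mRNAs end in a stem-loop in place of a poly(A) tail. H2A and H2B genes often face away from each other across a short shared promoter, in which a TATA box, CCAAT boxes and, for H2B, an octamer are textbook elements. Replacement histones such as H3.3 (H3f3a, H3f3b), H2A.Z (H2afz, H2afv) and H2A.X (H2afx) come from separate genes that are transcribed through the cell cycle. They are the main supply of new histone in neurons, which no longer divide.

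The sequences below show the DNA on which the main contrasts rest, from RefSeq promoter windows on GRCm38.p6. The first 4 are spans between paired H2A and H2B start sites on the plus strand, chosen because each pair met the lists in a different way. Capitals mark 4 motifs on either strand: the letters TATAAA of the consensus TATA-type box, CCAAT as the site of NF-Y, ATTTGCAT as the octamer and GGGCGG as the GC box. Where CCAAT stands on the other strand, the print shows ATTGG.
Hist1h2ae-Hist1h2bg: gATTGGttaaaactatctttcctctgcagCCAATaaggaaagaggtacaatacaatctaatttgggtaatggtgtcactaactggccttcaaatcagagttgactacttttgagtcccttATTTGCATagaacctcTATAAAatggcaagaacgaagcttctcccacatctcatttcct
Hist1h2ah-Hist1h2bk: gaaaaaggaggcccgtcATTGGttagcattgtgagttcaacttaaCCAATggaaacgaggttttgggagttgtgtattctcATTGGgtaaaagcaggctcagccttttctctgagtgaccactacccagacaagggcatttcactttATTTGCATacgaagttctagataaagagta
Hist1h2ak-Hist1h2bn: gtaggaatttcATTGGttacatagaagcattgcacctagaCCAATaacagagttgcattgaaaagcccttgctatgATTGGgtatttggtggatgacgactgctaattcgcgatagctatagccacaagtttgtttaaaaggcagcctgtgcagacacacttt
Hist1h2ap-Hist1h2br: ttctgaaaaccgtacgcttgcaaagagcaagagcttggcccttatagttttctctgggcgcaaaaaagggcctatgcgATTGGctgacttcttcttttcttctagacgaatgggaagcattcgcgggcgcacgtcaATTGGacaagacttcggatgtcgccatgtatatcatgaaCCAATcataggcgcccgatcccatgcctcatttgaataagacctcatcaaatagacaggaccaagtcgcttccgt
In the Hist1h2ae-Hist1h2bg span (chr13:23571221-23571399), 125 of the 179 bases lay in a common region and 21 in a BIBR1532 region. In the Hist1h2ah-Hist1h2bk span (chr13:22035644-22035820), 143 of 177 bases lay in common regions and none in the other lists. The Hist1h2ak-Hist1h2bn span (chr13:21753913-21754075) lay whole, with all 163 bases, inside a BIBR1532 region. The Hist1h2ap-Hist1h2br sequence (chr13:21833493-21833742), the 250 bases before the Hist1h2br start, had 103 bases in a vehicle region.

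The other 4 sequences are the 150 bases before a start site, read along the gene. Hist1h4n held the BIBR1532 histone region of highest score, and Hist1h1a and H2afy held vehicle promoter regions. H3f3b encodes H3.3 and had a common promoter region.
Hist1h4n: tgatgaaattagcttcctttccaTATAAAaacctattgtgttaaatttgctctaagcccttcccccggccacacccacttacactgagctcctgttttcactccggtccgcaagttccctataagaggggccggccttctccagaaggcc
Hist1h1a: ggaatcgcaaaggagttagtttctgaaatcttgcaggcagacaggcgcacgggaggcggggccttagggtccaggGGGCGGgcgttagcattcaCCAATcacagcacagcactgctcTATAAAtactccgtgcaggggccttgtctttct
H3f3b: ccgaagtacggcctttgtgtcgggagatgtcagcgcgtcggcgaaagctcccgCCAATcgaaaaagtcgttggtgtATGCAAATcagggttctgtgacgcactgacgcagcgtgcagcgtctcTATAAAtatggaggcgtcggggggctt
H2afy: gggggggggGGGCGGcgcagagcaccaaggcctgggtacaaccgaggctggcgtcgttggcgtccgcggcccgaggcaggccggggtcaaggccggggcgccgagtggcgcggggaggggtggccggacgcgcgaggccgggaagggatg
The Hist1h4n sequence (chr13:21832198-21832347, minus strand) had 85 of its 150 bases in the BIBR1532 region. The Hist1h1a sequence (chr13:23763518-23763667, plus strand) had 69 of 150 bases in a vehicle region. All 150 bases of the H3f3b sequence (chr11:116024505-116024654, minus strand) lay in the common region, and all 150 of the H2afy sequence (chr13:56135551-56135700, minus strand) in a vehicle region. In H3f3b a TATAAA began 27 bp and in Hist1h1a 33 bp before the start, but in Hist1h4n 127 bp before it. Only these exact letters were searched, and the Hist1h4n sequence also holds tataag nearer the start, left in lower case. The H2afy sequence held neither TATAAA nor CCAAT and was 79.3% G or C.

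Histone promoters were held by regions of all 3 lists, and the clustered genes leaned to the BIBR1532 list. Counting any region at any distance, 44 of the 84 protein-coding histone genes were named (52.4%, interval 41.2 to 63.4), against 59.1% of all protein-coding genes. A promoter-TSS region, that is one whose annotation places it at a start of transcription, was found in the common list for 19 of the 84 protein-coding histone genes (22.6%, interval 14.2 to 33.0). The share over all 21887 protein-coding genes was 14.2%, just at the lower bound of that interval. In the BIBR1532 list 15 of 84 histone genes had a promoter region (17.9%, interval 10.4 to 27.7), against 6.89% of all protein-coding genes. In the vehicle list 6 of 84 had one (7.14%, interval 2.67 to 14.9), against 7.37% of all, so the vehicle share was near the background. Of the 59 condition-specific histone regions, 38 were BIBR1532 regions (64.4%, interval 50.9 to 76.4), against 46.5% of all 34715 condition-specific regions.

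**Figure D1:**
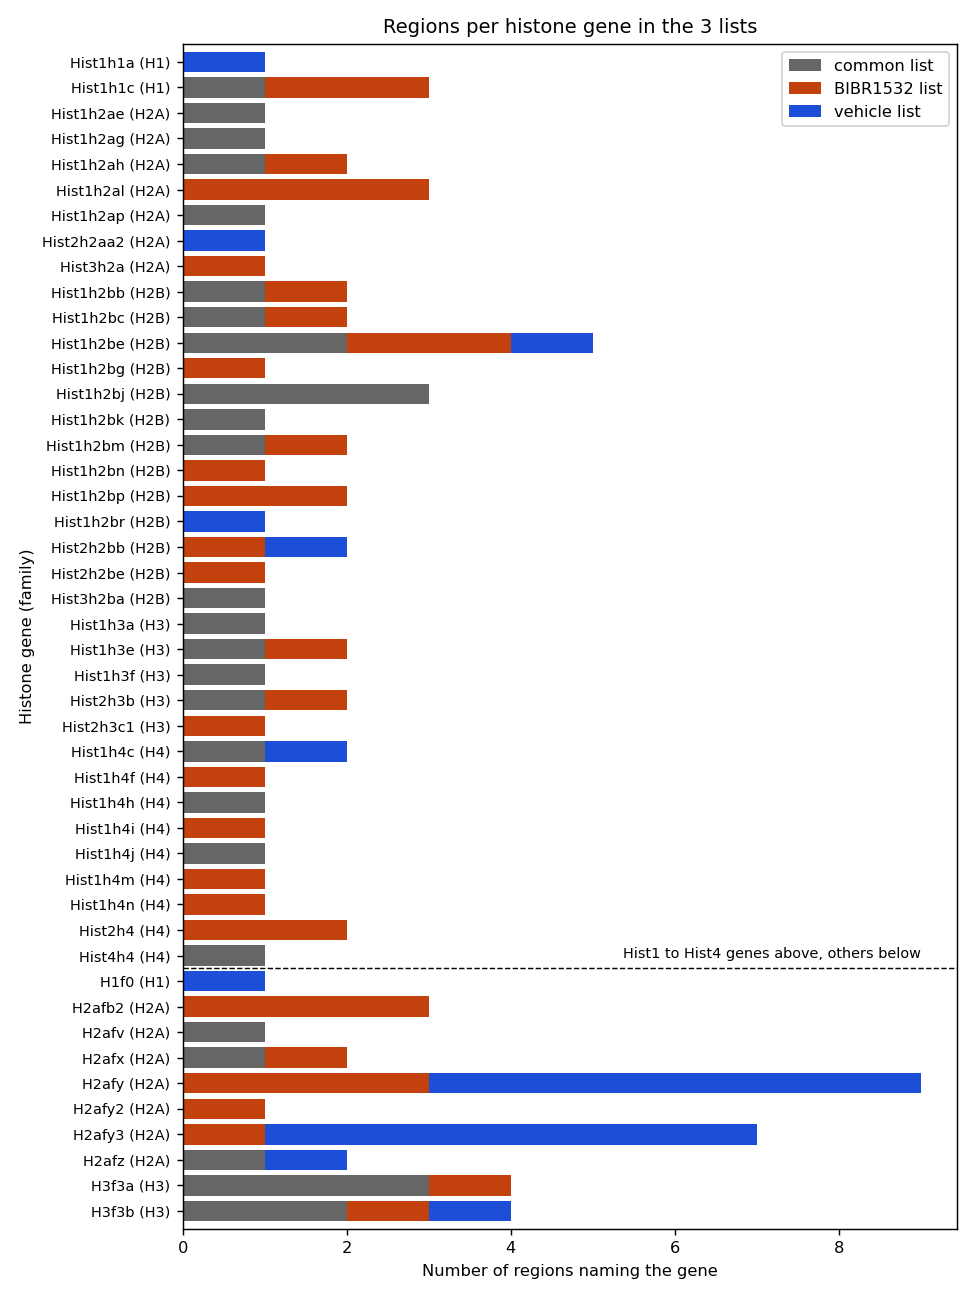
Number of regions naming each of the 46 histone genes, stacked by list, with the family in brackets and the Hist1 to Hist4 genes above the dashed line. Above the line 27 regions are from the BIBR1532 list and 6 from the vehicle list, and below it 11 and 15. H2afy has the most regions, 9.

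Condition-specific regions of clustered histone genes lay near start sites more often than such regions in general. In the common list 26 of 31 histone regions were centred within 1 kb of the annotated start (83.9%, interval 66.3 to 94.5, which holds the 72.7% of all common regions). In the BIBR1532 list 22 of 38 were (57.9%, interval 40.8 to 73.7, against 17.6% of all), and in the vehicle list 9 of 21 (42.9%, interval 21.8 to 66.0, against 15.9% of all). Clustered genes made up most of these, with 20 of 27 BIBR1532 regions (74.1%) and 5 of 6 vehicle regions (83.3%). Outside the clusters the counts were 2 of 11 (18.2%) and 4 of 15 (26.7%, interval 7.79 to 55.1), near the shares of all regions. Promoter-TSS was the class of 61.3% of common histone regions, 42.1% of BIBR1532 and 28.6% of vehicle ones, against 51.9%, 10.6% and 9.77% of all regions of those lists. The interval of the common share, 42.2 to 78.2, also holds its background. Median widths were 270, 248 and 238 bp, near the 257, 247 and 244 bp of all regions. Genes with Hist names are short, with a median length of 491 bp, and the median distance from a clustered gene's start to the nearest other member's start was 1250 bp. The nearness of clustered regions to starts was not separated from this spacing.

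**Figure D2:**
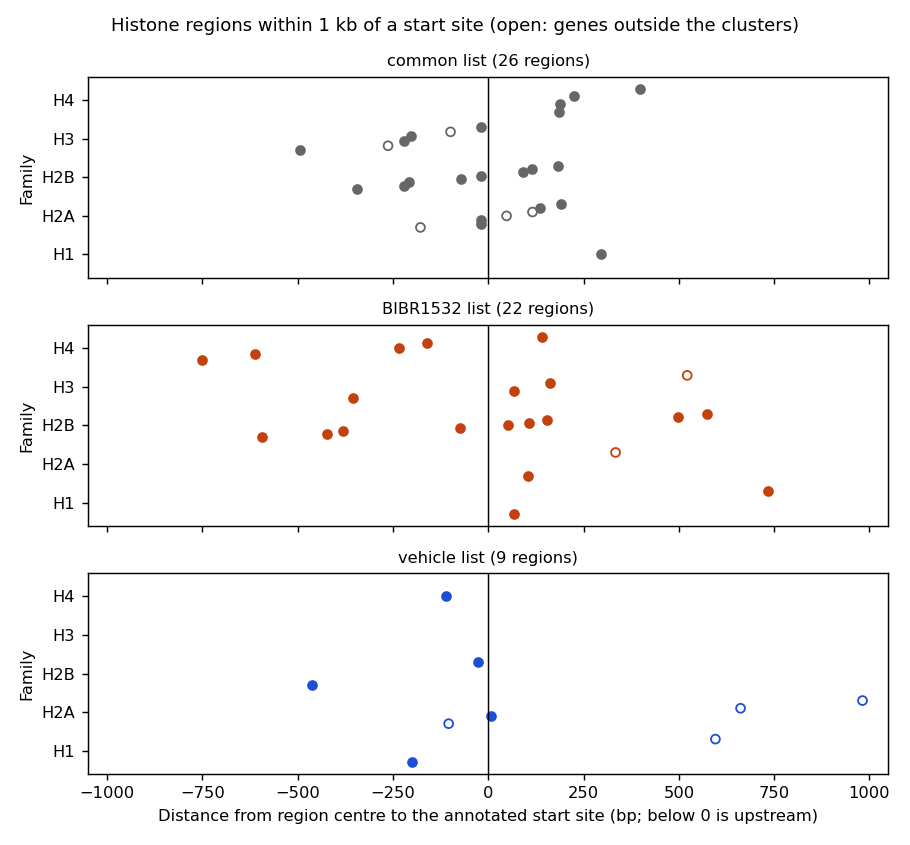
Distance from region centre to the annotated start site in bp (negative is upstream), for histone regions within 1 kb, by family and list; open points are genes outside the clusters. The 4 common H4 regions and the 1 common H1 region lie downstream of the start, while the common H3 regions shown lie upstream of it.

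H2B genes, which encode a core partner of H2A, had the most promoter regions among the clustered families. Of 18 protein-coding clustered H2B genes, 7 had a common promoter region (38.9%, interval 17.3 to 64.3), 7 a BIBR1532 one and 2 a vehicle one. The 14.2% of all protein-coding genes lies below that interval for H2B, and inside the intervals of the other 4 clustered families given below. The promoter class can come from the paired gene, so it is not alike between families. The Hist1h2bj common region, 183 bp downstream of its start, carries the same transcript label as that of Hist1h2ag. By position, 9 of 16 H2B genes with a RefSeq promoter window had a common region centred within 1 kb of their start, against 23.0% of such protein-coding genes. Hist1h2be held the common histone region of highest score, 0.566, at chr13:23621225-23621439 (215 bp). The score is the authors' own value and is used here to rank and filter regions within a list. The next base began a BIBR1532 promoter region of the same gene, chr13:23621440-23621653 (214 bp, score 2.08). A vehicle promoter region of Hist1h2be lay at chr13:23586333-23586534 (202 bp, score 1.66), beside another annotated start of that gene. Hist1h2be was thus the only histone gene with promoter regions in both condition-specific lists, and also had a BIBR1532 region in an intron and a common one at its end.

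Common promoter regions of the other H2B genes were found at 6 places. Hist1h2bm had chr13:21721731-21722214 (484 bp, score 0.147), with a BIBR1532 promoter region at chr13:21721253-21721648 (396 bp, score 2.42). Hist1h2bc had a common region at chr13:23683898-23684463 (566 bp, score 0.0299), with a BIBR1532 one at chr13:23684596-23684801 (206 bp, score 1.48). Hist1h2bk had chr13:22035678-22036148 (471 bp, score 0.145), and Hist1h2bj chr13:22043322-22043441 (120 bp, score 0.398) with 2 more common regions 6690 and 7104 bp from the start. Hist1h2bb had chr13:23746288-23746491 (204 bp, score 0.178), together with a BIBR1532 region in its exon. Hist3h2ba had chr11:58948570-58948812 (243 bp, score 0.0529).

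BIBR1532 promoter regions without a common one were found at 4 H2B genes. Hist1h2bn had chr13:21753862-21754142 (281 bp, score 2.20), which covers the whole span printed for its pair. Hist1h2bp had both chr13:21787494-21787696 (203 bp, score 1.54) and chr13:21787987-21788136 (150 bp, score 2.79). Hist1h2bg had chr13:23571379-23571527 (149 bp, score 1.74), 33 bp from the common region of its partner Hist1h2ae. Hist2h2bb had chr3:96269127-96269510 (384 bp, score 2.05), and a vehicle region 8656 bp from its start. Hist1h2br had the vehicle promoter region of highest score, 7.97, at chr13:21833640-21833790 (151 bp). Hist2h2be had a BIBR1532 region 6049 bp from its start.

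Of 18 protein-coding clustered H2A genes, 4 had a common promoter region (22.2%, interval 6.41 to 47.6), 1 a BIBR1532 and 1 a vehicle one. That interval holds the 14.2% of all protein-coding genes. The common ones were at Hist1h2ae, chr13:23571131-23571345 (215 bp, score 0.168), Hist1h2ag, chr13:22042884-22043051 (168 bp, score 0.0627), Hist1h2ah, chr13:22035392-22035512 (121 bp, score 0.0191), and Hist1h2ap, chr13:21810426-21810781 (356 bp, score 0.156). The last of these lies at Hist1h2ao by position, and these genes are near-identical copies, so which copy the reads came from is uncertain. Hist3h2a had a BIBR1532 promoter region at chr11:58954653-58954924 (272 bp, score 3.86), and Hist1h2ah a BIBR1532 region 6653 bp from its start. Hist2h2aa2 had a vehicle promoter region at chr3:96245106-96245823 (718 bp, score 2.24), which by position lies nearest its near-identical copy Hist2h2aa1. Hist1h2al, a pseudogene away from the clusters on chromosome 13, was named by 3 BIBR1532 regions between 15803 and 93566 bp from its start.

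The annotation gives each region to 1 gene, which hides shared promoters. Among the 62 clustered genes with a RefSeq promoter window, 10 H2A and H2B pairs faced away from each other with 163 to 280 bp between their start sites (median 204 bp). Genes without a window, among them Hist1h2bc and Hist2h2be, which also stand next to an H2A gene, were not paired here. By position, 7 of 18 protein-coding clustered H2A genes had a BIBR1532 region centred within 1 kb of their start, although 1 was named by a BIBR1532 promoter region. For the 16 H2B genes with a window the count by position was 7. Over all 17492 protein-coding genes with a window, the share by position was 12.4%. Paired genes can share 1 region, so these counts are not independent. Regions were counted where they came within 500 bp of the span. Common regions lay at 4 of these 10 pairs: 2 at Hist1h2ah-Hist1h2bk, 2 at Hist1h2ag-Hist1h2bj, 1 at Hist1h2bq-Hist1h2ao and 1 at Hist1h2ae-Hist1h2bg. BIBR1532 regions lay at 3 of them, with 2 at Hist1h2an-Hist1h2bp, 1 at Hist1h2ak-Hist1h2bn and 1 at Hist1h2ae-Hist1h2bg. The 1 vehicle region at a pair was that of Hist1h2ap-Hist1h2br. No region lay at Hist1h2bl-Hist1h2ai, Hist1h2bf-Hist1h2ad or Hist1h2ba-Hist1h2aa.

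H3 genes encode the core histone with the most studied tail modifications. A common promoter region was found at 4 of 12 clustered members (33.3%, interval 9.92 to 65.1, which holds the 14.2% of all protein-coding genes). These were Hist1h3f, chr13:23543589-23544478 (890 bp, score 0.301), Hist1h3e, chr13:23562402-23563316 (915 bp, score 0.120), Hist1h3a, chr13:23762456-23762725 (270 bp, score 0.0858), and Hist2h3b, chr3:96268290-96268574 (285 bp, score 0.0570). The first 2 of these were the widest common histone regions. Hist2h3b also had a BIBR1532 promoter region at chr3:96268599-96268845 (247 bp, score 1.52), and Hist1h3e a BIBR1532 region in its exon, 43 bp from the common one. Hist2h3c1 had a BIBR1532 promoter region at chr3:96239336-96239658 (323 bp, score 6.08), although the nearest start site in RefSeq is that of its near-identical copy Hist2h3c2, at a distance of -370 bp. No clustered H3 gene had a vehicle region.

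H4 genes encode the partner of H3. None of the 13 H4 genes had a common promoter region (interval 0 to 24.7%, which holds the 14.2% of all protein-coding genes). Their common regions lay just past the start instead, in the exon of Hist1h4j (185 bp downstream), Hist1h4c (189 bp) and Hist4h4 (226 bp), and at the end of Hist1h4h (399 bp). By position, 4 of 12 H4 genes with a RefSeq promoter window thus had a common region centred within 1 kb of their start. The share of all protein-coding genes with a window was 23.0%. BIBR1532 promoter regions were found at 4 H4 genes. Hist1h4n had chr13:21832263-21832455 (193 bp), with the highest score of the BIBR1532 histone regions, 11.5. Hist1h4m had chr13:21811361-21811664 (304 bp, score 4.12), Hist1h4i chr13:22042014-22042213 (200 bp, score 2.38) and Hist2h4 chr3:96263750-96264111 (362 bp, score 1.17). Hist1h4f had a BIBR1532 region in its exon, and Hist2h4 a second one at its end. Hist1h4c had the family's vehicle region, a promoter region at chr13:23698450-23698690 (241 bp, score 1.79), 68 bp from its common region.

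Linker histone H1 binds the DNA between nucleosomes. None of 6 clustered H1 genes had a common promoter region (interval 0 to 45.9%, which holds the 14.2% of all protein-coding genes). Hist1h1c had a common region in its exon with BIBR1532 regions on both sides. The first, a promoter region at chr13:23738773-23738976 (204 bp, score 5.73), ended at the base before the common region, and the second lay 76 bp beyond it. Hist1h1a had a vehicle promoter region at chr13:23763349-23763586 (238 bp, score 2.30). Outside the clusters, H1f0, the replacement H1 of non-dividing cells, had 1 vehicle region in its exon, 596 bp from the start (score 8.92).

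Among 17 protein-coding genes outside the clusters, 4 had a common promoter region (23.5%, interval 6.81 to 49.9), none a BIBR1532 one (interval 0 to 19.5%) and 1 a vehicle one. Both H3.3 genes had a common one, H3f3a at chr1:180813682-180814055 (374 bp, score 0.0717) and H3f3b at chr11:116024468-116024738 (271 bp, score 0.387). H2afz, which encodes H2A.Z, had chr3:137864150-137864469 (320 bp, score 0.138). H2afx, whose product is phosphorylated beside DNA breaks, had chr9:44334615-44334912 (298 bp, score 0.293), and a BIBR1532 region in its exon that began at the next base. H2afv, the other H2A.Z gene, had a common region in an intron, 116 bp from the start. H3f3a and H3f3b also had a BIBR1532 region each, 1204 and 522 bp from the start, and H3f3b a vehicle region in its 3′ UTR.

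The macroH2A genes, which encode large H2A variants enriched on silent chromatin, had many regions, most of them far from a start site. H2afy had 3 BIBR1532 and 6 vehicle regions and no common one. Its vehicle promoter region lay at chr13:56135519-56135790 (272 bp, score 5.40), and 2 further vehicle regions lay inside the gene, 662 and 982 bp from the start (both score 7.35). Its BIBR1532 regions were 7731, 22461 and 83911 bp from the start. H2afy3, a pseudogene, was named by 6 vehicle regions and 1 BIBR1532 region, between 12850 and 594832 bp from its start. The vehicle region at chr15:62295869-62296132 (264 bp) had the highest score of the vehicle histone regions, 15.8. H2afy2 had 1 BIBR1532 region at 52304 bp and H2afz a vehicle region at 29274 bp. H2afb2, an H2A variant gene on chromosome X, had 3 BIBR1532 regions between 33438 and 70333 bp. Such distances give a nearest gene by annotation, with no link to its promoter measured.

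The lean to BIBR1532 was seen among the clustered genes, and their difference from the others was not tested. Of 33 condition-specific regions with Hist names, 27 were BIBR1532 regions (81.8%, interval 64.5 to 93.0). Outside the clusters 11 of 26 were (42.3%, interval 23.4 to 63.1), near the 46.5% of all regions. Most of those 26 regions were of H2afy (3 BIBR1532 and 6 vehicle) and the pseudogene H2afy3 (1 and 6), many far from a start. The share outside the clusters thus rests mainly on these 2 genes, and the remaining outside genes held more BIBR1532 than vehicle regions. Without Hist1h2al the clustered share was 24 of 30 (80.0%). By block it was 6 of 7 in the first Hist1 block, 2 of 2 in the second, 9 of 12 in the third, 6 of 8 at Hist2 and 1 of 1 at Hist3. With each of these blocks left out in turn and Hist1h2al kept, the share lay between 80.6% and 85.7%. By family, BIBR1532 regions were 2 of 3 for H1, 5 of 6 for H2A, 11 of 14 for H2B, 3 of 3 for H3 and 6 of 7 for H4. Of the 5 for H2A, 3 were those of Hist1h2al, far from its start.

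Over all histone genes the BIBR1532 share differed with score and with nearby common regions. Among the clustered genes it differed little with either, on few regions. In each condition-specific list many regions share 1 most frequent score, 6.34 for BIBR1532 and 5.19 for vehicle. Of the clustered BIBR1532 regions 21 of 27 scored below it (77.8%), against 24.3% of all BIBR1532 regions. Each list was cut at its own most frequent score, so shares below and above it join unlike ranges of score. Over all genes, BIBR1532 regions were 62.1% of the regions below it, so the background is higher there. The clustered share below that score was 21 of 26 (80.8%, interval 60.6 to 93.4). At or above it the clustered share was 6 of 7 (85.7%), with regions of Hist1h2al among the 6. Over all histone genes the split by score ran the other way at the top: above the most frequent score 3 of 13 regions were BIBR1532 regions (23.1%, interval 5.04 to 53.8, against 40.5% of all), and 9 of the 10 vehicle ones were of genes outside the clusters. Most of those 9 were of H2afy or H2afy3. A common region lay within 1 kb of 15 of 38 BIBR1532 histone regions (39.5%, interval 24.0 to 56.6, against 8.45% of all) and of 3 of 21 vehicle ones (14.3%, interval 3.05 to 36.3, against 7.53%). Among promoter-TSS regions alone the counts were 9 of 16 (56.2%, interval 29.9 to 80.2) and 2 of 6 (33.3%, interval 4.33 to 77.7). Those intervals hold the 37.4% and 39.1% of all promoter-TSS regions of the 2 lists. Within 1 kb of a common region the BIBR1532 share of histone regions was 15 of 18 (83.3%, against 49.4% of all), and farther away 23 of 41 (56.1%, against 46.3%). Only 139 BIBR1532 and 191 vehicle regions in the whole lists overlapped a common one, so regions of these lists seldom lie over a common one. For the clustered genes alone the BIBR1532 share was 12 of 14 near a common region and 15 of 19 (78.9%) farther away, where the 15 include the 3 regions of Hist1h2al. The depth and scaling of the pools are not known, and their part in the lean was not tested.

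**Figure D3:**
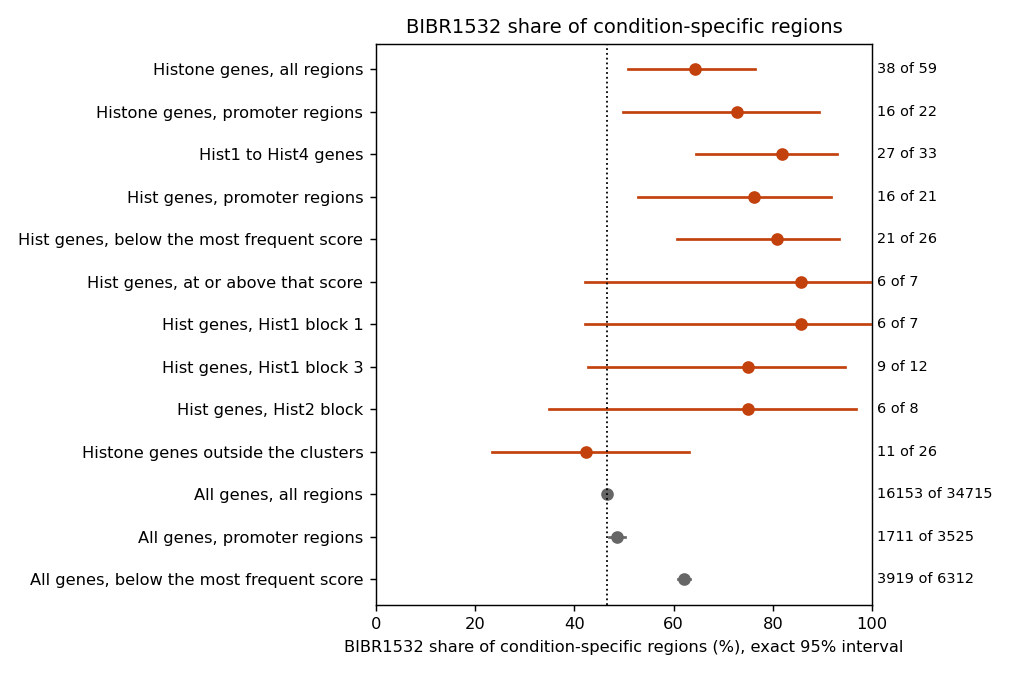
BIBR1532 share of condition-specific regions in percent with exact 95% intervals, for sets of histone regions (orange) and all regions (grey), the counts at the right and the dotted line at 46.5%. The interval of the Hist1 to Hist4 genes lies above the line, that of the genes outside the clusters spans it, and those of single blocks are wide and cross it.

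Along the clusters, regions of all lists were counted by position. The first Hist1 block, 124 kb with 19 members on chromosome 13, held 3 common, 6 BIBR1532 and 1 vehicle region. The second, 10.5 kb with 5 members, held 4 common and 1 BIBR1532 region, and each of its 5 genes was named by at least 1 region. The third, 406 kb with 31 members, held 11 common, 11 BIBR1532 and 3 vehicle regions, of which 2 BIBR1532 regions were named for other genes. The Hist2 block on chromosome 3, 52.3 kb with 10 members, held 1 common, 6 BIBR1532 and 1 vehicle region. Of 57 histone regions near a start, 3 lay more than 1 kb from the gene named and beside another histone gene. They were named for Hist1h2ap, Hist2h3c1 and Hist2h2aa2, which have near-identical copies.

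**Figure D4:**
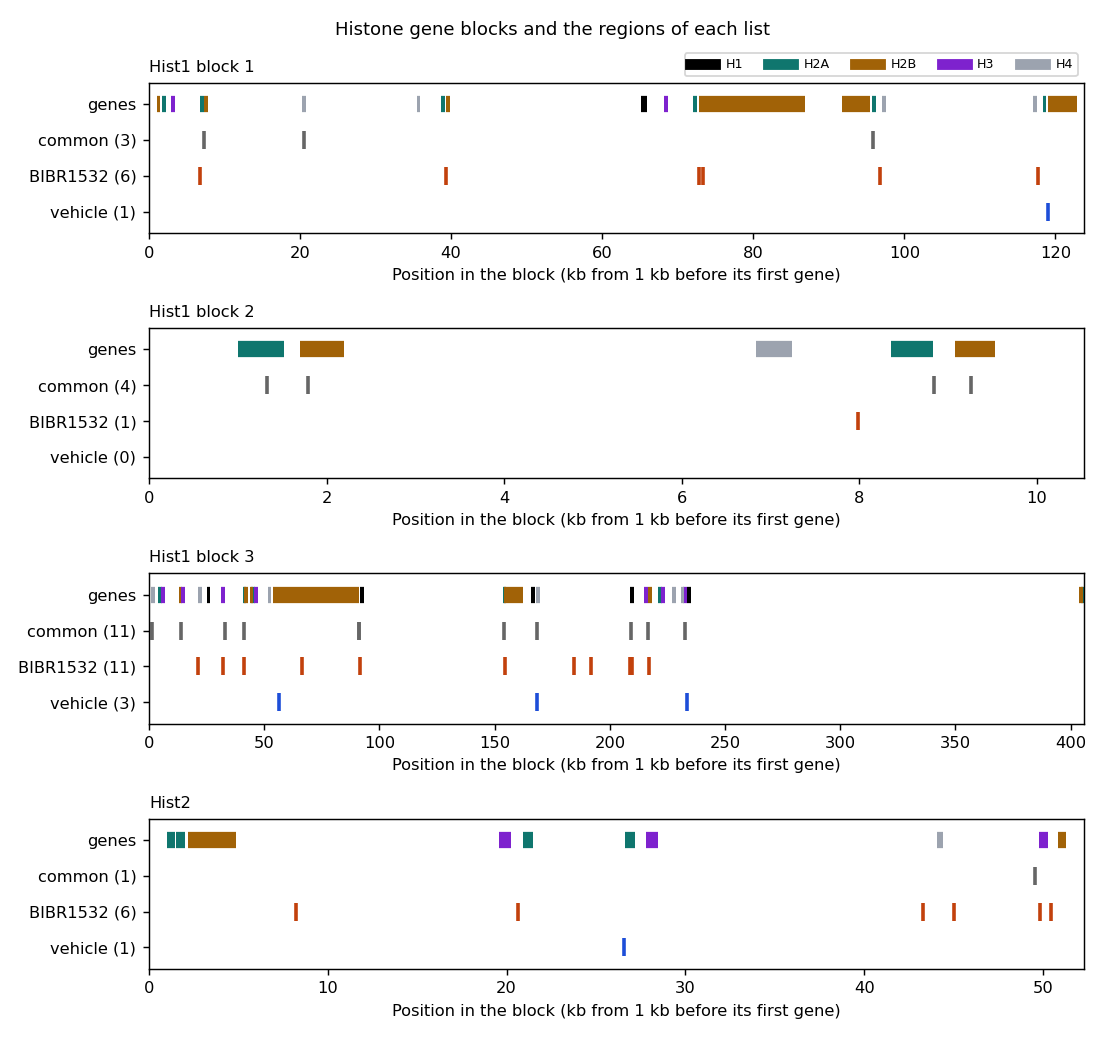
Histone genes, coloured by family, and the centres of common, BIBR1532 and vehicle regions in the 3 Hist1 blocks and the Hist2 block, in kb from 1 kb before the first gene, with region counts in brackets. BIBR1532 and common regions occur along the blocks, and the second Hist1 block has no vehicle region.

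The promoter windows of clustered genes held the letters searched for 3 of these motifs more often than promoters at large. Motifs were searched on both strands of the 300 bases from 250 before to 50 after the start, for 62 clustered genes, 16 outside and all 27025 promoters of the table, and no motif contains another. Only 17492 genes of the table are protein-coding, as all histone genes with a window are, so these backgrounds also hold other promoters. The letters TATAAA were in 35 of 62 clustered windows (56.5%), 2 of 16 outside (12.5%) and 15.7% of all. On the gene's own strand and upstream of the start they were in 24 clustered windows, of which 12 had them 25 to 40 bp before the start, where a TATA box acts. The letters CCAAT were in 85.5%, 68.8% and 41.1%. ATTTGCAT, the octamer, was in 14 of 62 clustered windows (22.6%) and 1.97% of all, with 7 of 18 H2A and 7 of 16 H2B genes and no H1, H3 or H4 gene. GGGCGG (GC box) was in 38.7% of clustered and 38.2% of all windows, but in 9 of 12 H4 genes, whereas CCAAT was in 3 of those 12. The telomeric repeat unit TTAGGG was in 3 of 62 clustered windows (4.84%), all H1 genes, against 12% of all, and CACGTG (E-box) in 0 of 62 against 8.09%.

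Within the clustered genes, windows were also counted by whether a common region lay near. TATAAA was in 8 of 22 genes whose start lay within 1 kb of a common region (36.4%) and in 27 of 40 others (67.5%). ATTTGCAT was in 8 of 22 (36.4%) and 6 of 40 (15%), and CCAAT in 86.4% and 85.0%. Paired genes share parts of these windows and of the regions, so the counts are not independent, and a motif match is a description of the letters only.

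**Figure D5:**
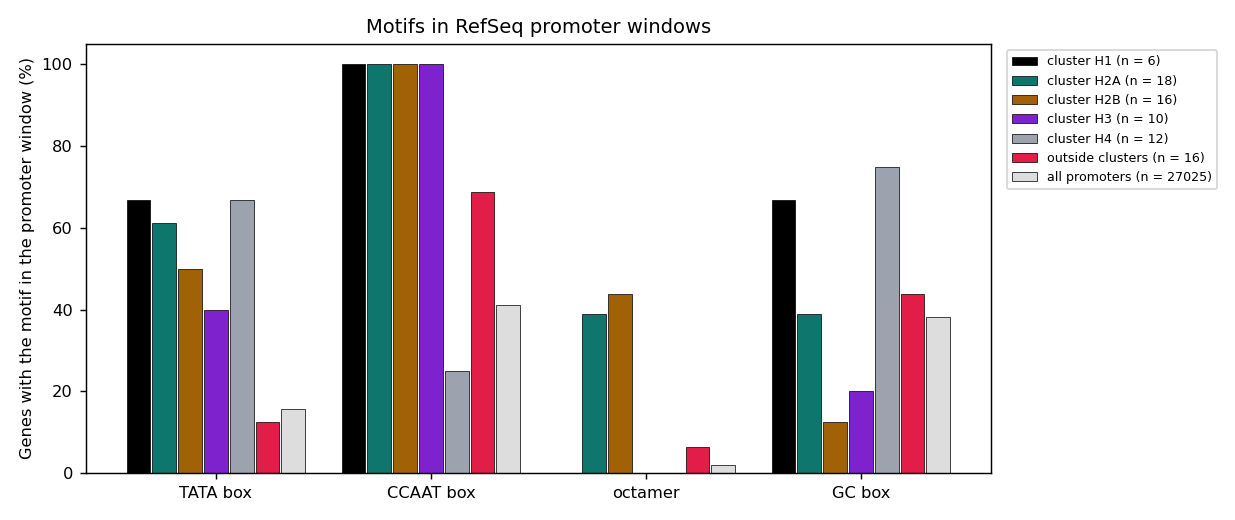
Percent of genes whose RefSeq promoter window holds each motif on either strand, by clustered family, for histone genes outside the clusters and for all promoters. CCAAT is in every clustered H1, H2A, H2B and H3 window and in 3 of 12 H4 windows, and the octamer is in clustered H2A and H2B windows only among the clustered families.

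Genes that supply and carry histones were examined as a list of 46. A common promoter region was found at 13 of them (28.3%, interval 16.0 to 43.5, against 14.2% of protein-coding genes), a BIBR1532 one at 6 (13.0%, interval 4.94 to 26.3, against 6.89%) and a vehicle one at 9 (19.6%, interval 9.36 to 33.9, against 7.37%). In this list the vehicle share was thus above its background and the BIBR1532 interval held its own. Npat, the coactivator of clustered histone genes, had a common region 97 bp upstream of its start and a BIBR1532 promoter region. Slbp, which binds the histone mRNA stem-loop, had a vehicle promoter region and no common one. Of the H3 and H4 chaperones, Asf1b, Chaf1b (of the replication-coupled factor CAF-1), Nasp and Rbbp4 had common promoter regions. Cabin1, Ubn1 and Ubn2, which work with HIRA to deposit H3.3, also had them, but Hira itself and the H3.3 depositors Daxx and Atrx had no region in any list. Common promoter regions were also found at Nap1l1, Nap1l4 and Set, chaperones of the NAP family, Ssrp1 of the FACT complex, and Anp32e, which removes H2A.Z. Supt16 and Chaf1a, also in the list, had no common promoter region.

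As a check of the labelled cell type, neuronal marker genes were looked up in the lists, which give TERT signal and not expression. All 8 were named by a region, as were all 4 astrocyte, all 4 microglial and all 4 cycling-progenitor markers, 2 of 4 oligodendrocyte markers and 59.1% of all protein-coding genes. Of the neuronal markers 1, Snap25, had a common promoter region. No common promoter region was found for 4 astrocyte, 4 microglial, 4 oligodendrocyte or 4 endothelial markers, and the endothelial markers had no region at all. Of 4 markers of cycling progenitors, 1, Top2a, had a common promoter region. The labelled neurons can thus be neither shown nor refuted from these lists, and dividing cells in the cultures, in which clustered histone genes are most active, were not measured.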

How the data were processed

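Per the labels, 3 vehicle and 3 BIBR1532 samples were used, grouped by dose. Per the submitters' processing notes, the tools were MACS2 2.1.2, Picard, Bowtie2 and CASAVA 1.8, on the mm10 build. The deposited lists pool the 3 libraries of each condition, and a comparison step of MACS2 was inferred from their form. Per the file headers, annotatePeaks.pl gave each region a class, the gene with the nearest start and the distance to it in bp. The score printed for a region is the deposited value of the authors. Scaling of the pools is not stated in the labels or headers.

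The 2 condition-specific lists were decoded from a 7-bit text encoding. Members were counted on chromosomes 1 to 19, X and Y, and genes, positions and promoter sequences were matched by gene ID to RefSeq tables of GRCm38.p6, the same build. Every histone gene with a region is named, and coordinates are given for promoter-TSS regions and the highest score in each list. Members and lists were chosen with earlier results of these data known. Shares are set beside all genes or regions as descriptions, with no test. The counting code was tested on simulated data. Alternatives covered score, width, distance, merging, contigs, membership and the definition of a promoter. Tools were matplotlib 3.10.9, scipy 1.17.1, numpy 2.4.6, pandas 2.3.3 and Python 3.11.15.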

Additional observations from a re-analysis of the deposited data

How the results depend on the processing

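No paired analysis was possible because the lists pool the libraries of each condition and hold no value per replicate; leaving out a replicate could not be done for the same reason. The numbers of histone regions, 31 common, 38 BIBR1532 and 21 vehicle, fell to 5, 1 and 4 at a width of at least 500 bp. A score of at least 3 left 18 BIBR1532 regions, and a distance within 10 kb left 11 vehicle regions. Genes outside the clusters alone held 8 common and 11 BIBR1532 regions, and clustered genes alone 6 vehicle regions. Histone genes with a common promoter region went from 19 to 3 at 500 bp and to 4 outside the clusters. Those with a condition-specific one went from 20 to 7 at a score of at least 3, to 1 at 500 bp and to 1 outside the clusters. The BIBR1532 share of 64.4% became 81.8% for clustered genes, 42.3% outside them, 20% of 5 regions at 500 bp, 81.2% below the most frequent score and 23.1% above it, the last 2 chosen after seeing the data. The same score minimum was applied to both lists, whose most frequent scores differ. The share moved by less than its interval under the 11 other alternatives, but that interval is wide. A score minimum of 3 gave 54.5% (interval 36.4 to 71.9, which holds the 44.9% of all regions). Regions over 1 kb from a common one gave 56.1% (interval 39.7 to 71.5, which holds the 46.3% of all). A minimum of 2 gave 61.4% (interval 45.5 to 75.6, just above the 45.4% of all). Intervals within 1 kb of the start (52.0 to 85.8) and for promoter-TSS regions (49.8 to 89.3) also lay above their backgrounds, 49.0% and 48.5%. These changes follow from which regions each setting keeps. The depth of the pools is unknown, so no region's absence can be told from low coverage.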
